A study of Homo sapiens with 6 samples.

Results

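The genes examined were 9 genes of homologous recombination and the Fanconi anemia pathway, BRCA1, BRCA2, PALB2, BARD1, RAD51C, FANCA, FANCD2, FANCI and ATM, taken by name from a table of 21494 genes. All 9 had a row and all 9 passed the filter on low counts, which left 16756 genes for testing. RNA-seq was performed on 6 samples with the cell line label G361 (melanoma), of which 3 carried a control shRNA and the genotype WT (Control sh) and 3 an shRNA against DCAF1, the gene of VprBP, and the genotype DCAF1 Knockdown (VprBP sh). Per the paper's methods, the shRNA was delivered with a lentivirus to G361 cells that were then selected with puromycin, a single shRNA sequence against VprBP is given, and whether the lines were pools or clones is not stated. Whether the replicates were separate cultures is not stated, so p-values measure only the spread between these samples.

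Homologous recombination repairs a broken chromosome by copying the sister chromatid and is therefore used mainly in S and G2 phase. The BRCA1-BARD1 heterodimer acts at the resected break, PALB2 links BRCA1 to BRCA2, and BRCA2 and RAD51C act in the strand exchange that follows. The Fanconi pathway removes crosslinks between DNA strands: a core complex that contains FANCA attaches ubiquitin to the FANCD2-FANCI heterodimer. ATM is the kinase that signals a double-strand break. Many of these genes are transcribed under control of E2F factors, which RB1 and its relatives restrain.

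The libraries held 18195926 to 26883925 counts each, with overlapping totals in the 2 groups. All 6 samples name LD611 as their source, beside the cell line name G361. Because the labels give both names, melanocyte-lineage and urothelial markers were read out in each sample, and no cell type was assigned from them. Of 9 melanocyte-lineage markers, 5 had a row, with a summed level of 429 to 493 normalized counts (counts scaled for library size by the upper quartile) in Control sh, against 1032 to 1102 in VprBP sh, most of it MC1R and MITF. MLANA had 1 to 5 counts and TYRP1 0 to 4 counts in a sample, and SOX10, TYR, DCT and S100B had no row in a table whose genes all reach a sum of 10. Of 10 urothelial markers, 8 had a row, with a summed level of 103912 to 113556 normalized counts in Control sh, against 25098 to 28548 in VprBP sh. TP63, which encodes a basal epithelial transcription factor, had 8929 ± 1015 normalized counts in Control sh, against 9.44 ± 0.98 in VprBP sh (SD, n = 3), and KRT5, a basal keratin, went from 64989 ± 7916 to 3488 ± 1354. Of the 7 urothelial markers tested, 5 fell and 2 rose. The 2 were GATA3, a luminal transcription factor with 0 to 7 counts in a Control sh sample and 1334 to 1873 in a VprBP sh sample, and PPARG, from 277 ± 67 to 726 ± 24 normalized counts. UPK1B, a uroplakin, had 500 to 709 counts in Control sh and 0 in every VprBP sh sample. Mitochondrial transcripts took 1.96% to 1.98% of counts in Control sh, against 4.10% to 4.48% in VprBP sh. These differences ran along the same line as the 2 groups, and their part in the results below was not tested. The labels do not settle whether LD611 or G361 is the right name, or whether both groups come from the same cells. A difference in cell identity and an effect of the shRNA therefore cannot be told apart in any fold change given here. In such bulk samples fewer cells of a type and less RNA per cell cannot be told apart. DCAF1 itself had 797, 971 and 838 normalized counts in Control sh, against 760, 507 and 481 in VprBP sh, a log2 fold change of -0.58 (standard error, SE, 0.17, adjusted p = 0.0125, edgeR), which is less than a 2-fold reduction. The groups did not overlap, with VprBP sh replicate 1 the nearest to Control sh. These values measure RNA alone. By Western blot and immunostaining, the paper reports that VprBP knockdown in G361 cells nearly removed the histone phosphorylation it assigns to VprBP.

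The design asks how transcription differs between cells with the VprBP shRNA and control cells. BARD1 and ATM rose more than 2-fold, FANCA and FANCI rose by less, and BRCA1 and BRCA2 fell. PALB2, RAD51C and FANCD2 did not pass the test. A gene is said to have risen or fallen where the adjusted p-value (Benjamini-Hochberg, over all genes tested) was under 0.05 in edgeR's quasi-likelihood test, and is called when its fold change was also over 2. By this measure 4 of the 9 genes rose and 2 fell, where 40.4% of all genes tested rose and 36% fell (76.4% in either direction). Both called genes were higher in VprBP sh, 2 of 9, where 24.5% of all genes were called higher and 22% lower (46.4% in either direction). Counted in either direction, neither 6 of 9 nor 2 of 9 exceeds the share among all genes. The median log2 fold change of the 9 genes was 0.26, beside 0.08 for all genes tested. The median absolute log2 fold change was 0.49, beside 0.92 for all genes. BARD1 and ATM were called in all 15 alternative fits.

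**Figure D1:**
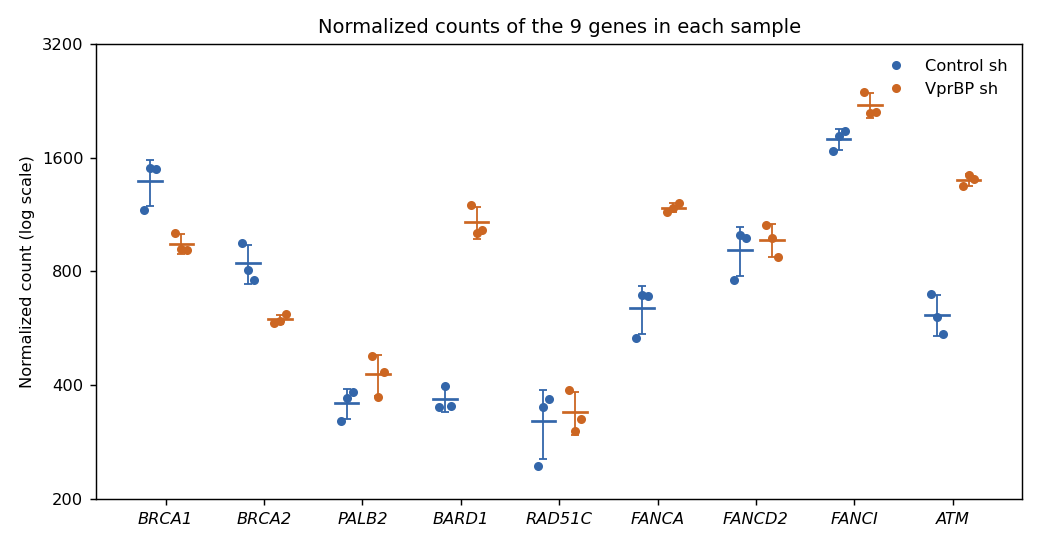
Normalized counts (log scale) of the 9 genes, with a point for each sample, a horizontal bar for the mean and an error bar for the SD of 3 samples. The VprBP sh points lie above all Control sh points for BARD1, FANCA, FANCI and ATM, and below them for BRCA1 and BRCA2, while the ranges overlap for PALB2, RAD51C and FANCD2.

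BRCA1 (ENSG00000012048.23), a ubiquitin ligase subunit and tumor suppressor, occupies chr17:43044295-43170245 of hg38 (minus strand). It had 1166, 1500 and 1493 normalized counts in Control sh, against 1013, 916 and 913 in VprBP sh. Every VprBP sh sample was thus below every Control sh sample, with Control sh replicate 1 the nearest to the other group. The log2 fold change was -0.55 (SE 0.12, adjusted p = 0.00168, edgeR). BARD1 (ENSG00000138376.11), the partner that stabilizes BRCA1 and completes its ligase activity, occupies chr2:214725646-214809683 (minus strand). Its normalized counts were 351, 399 and 352 in Control sh, against 1200, 1013 and 1029 in VprBP sh. The groups were far apart, and the log2 fold change of 1.56 (SE 0.11, adjusted p = 1.21e-06, edgeR), or 2.94-fold, was the largest of the 9 genes.

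BRCA2 (ENSG00000139618.17), a tumor suppressor that acts on resected single-stranded DNA, occupies chr13:32315086-32400268 (plus strand). It had 952, 808 and 761 normalized counts in Control sh, against 585, 590 and 616 in VprBP sh. The VprBP sh samples lay close together and below all Control sh samples, with a log2 fold change of -0.49 (SE 0.11, adjusted p = 0.00247, edgeR). PALB2 (ENSG00000083093.10), the bridge between BRCA1 and BRCA2, occupies chr16:23603160-23641310 (minus strand). It had 322, 370 and 384 normalized counts in Control sh, against 479, 373 and 434 in VprBP sh. One VprBP sh sample fell among the Control sh values, and the log2 fold change was 0.26 (SE 0.13, adjusted p = 0.102, edgeR). RAD51C (ENSG00000108384.15), a strand exchange factor found in 2 complexes with its paralogs, occupies chr17:58692573-58735611 (plus strand). It had 245, 351 and 368 normalized counts in Control sh, against 389, 303 and 326 in VprBP sh. The groups overlapped, with a log2 fold change of 0.07 (SE 0.17, adjusted p = 0.707, edgeR), whose sign turned under other scalings.

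FANCA (ENSG00000187741.16), a subunit of the Fanconi core complex, occupies chr16:89726683-89816977 (minus strand). It had 532, 695 and 690 normalized counts in Control sh, against 1150, 1176 and 1214 in VprBP sh. All VprBP sh samples were above all Control sh samples, at a log2 fold change of 0.88 (SE 0.12, adjusted p = 8.39e-05, edgeR), or 1.85-fold. With library size alone as the scaling, FANCA passed 2-fold, at a log2 fold change of 1.09. FANCD2 (ENSG00000144554.13), which is ubiquitinated by the core complex, occupies chr3:10026370-10101932 (plus strand). Its normalized counts were 758, 1001 and 978 in Control sh, against 1063, 980 and 872 in VprBP sh. These overlapped, and the log2 fold change of 0.09 (SE 0.13, adjusted p = 0.548, edgeR) turned sign under other scalings. FANCI (ENSG00000140525.20), its partner, occupies chr15:89243945-89317261 (plus strand). It had 1667, 1832 and 1881 normalized counts in Control sh, against 2393, 2102 and 2116 in VprBP sh. The groups did not overlap, at a log2 fold change of 0.30 (SE 0.09, adjusted p = 0.0121, edgeR). This small increase did not pass with TMM factors (0.20, adjusted p = 0.0591) or DESeq2 (0.18, adjusted p = 0.108).

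ATM (ENSG00000149311.20) occupies chr11:108223044-108369102 (plus strand). It had 695, 605 and 545 normalized counts in Control sh, against 1343, 1444 and 1407 in VprBP sh. The lowest VprBP sh sample was well above the highest Control sh sample, at a log2 fold change of 1.19 (SE 0.11, adjusted p = 6.07e-06, edgeR), or 2.27-fold. In all, the groups did not overlap for 6 of the 9 genes, against 79.5% of all genes tested.

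Since the genes work in fixed pairs, the ratio of read counts within each library was also compared, which needs no scaling factor. BARD1 had 0.301, 0.266 and 0.236 reads for each BRCA1 read in Control sh, against 1.19, 1.11 and 1.13 in VprBP sh. BRCA1 reads thus outnumbered BARD1 reads in every Control sh sample and were the fewer in every VprBP sh sample, with no correction for transcript length. The log2 ratio went from -1.91 ± 0.18 to 0.19 ± 0.05 (SD, n = 3), a 4.28-fold difference. The ratio of FANCI to FANCD2 reads was 2.20, 1.83 and 1.92 in Control sh, against 2.25, 2.15 and 2.43 in VprBP sh. These ranges overlapped, and the log2 ratio differed by 0.20. The ratio of PALB2 to BRCA2 reads was 0.339, 0.458 and 0.504 in Control sh, against 0.819, 0.632 and 0.705 in VprBP sh, so that the groups were apart by 0.74 on the log2 scale. Exact two-sided permutation tests gave p = 0.1, 0.2 and 0.1 for the 3 ratios in this order (0.15, 0.2 and 0.15 after Benjamini-Hochberg adjustment over the 3), where 0.1 is the smallest p that 3 samples against 3 allow.

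**Figure D2:**
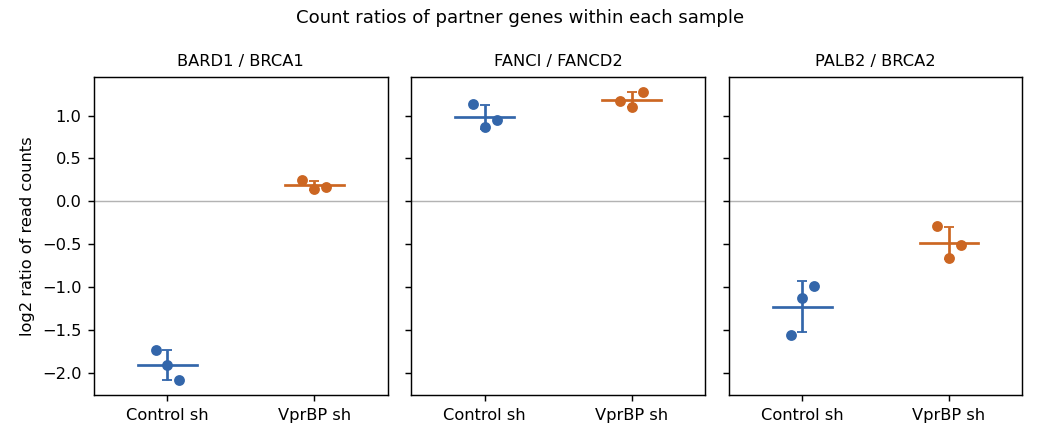
Log2 ratio of read counts of BARD1 to BRCA1, FANCI to FANCD2 and PALB2 to BRCA2 in each sample, with a horizontal bar for the mean and an error bar for the SD of 3 samples. The BARD1 to BRCA1 ratio moved from -1.91 in Control sh to 0.19 in VprBP sh, while the FANCI to FANCD2 samples overlapped.

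Levels were compared between genes per kilobase of the canonical transcript in GENCODE 44, which ranged from 2562 bases for RAD51C to 12915 bases for ATM. In Control sh the order was FANCI with 379 ± 24 normalized counts per kilobase (SD, n = 3), BRCA1 with 196 ± 27, FANCD2 with 179 ± 26, RAD51C with 125 ± 26, FANCA with 117 ± 17, PALB2 with 89.5 ± 8.1, BRCA2 with 70.3 ± 8.3, BARD1 with 67.05 ± 5.0 and ATM with 47.65 ± 5.9. The sample values of BRCA1 and FANCD2 overlapped, as did those of RAD51C and FANCA and of BRCA2 and BARD1, so these neighbours were not separated by the replicates. In VprBP sh the order was FANCI with 466 ± 35, FANCA with 216 ± 6, BARD1 with 197 ± 19, FANCD2 with 191 ± 19, BRCA1 with 134 ± 8, RAD51C with 132 ± 17, ATM with 108 ± 4, PALB2 with 107 ± 13 and BRCA2 with 49.9 ± 1.4. Here FANCA overlapped with BARD1, BARD1 with FANCD2, BRCA1 with RAD51C, and ATM with PALB2. FANCI was the most abundant of the 9 in both groups, and BARD1 moved from the 8th to the 3rd place and BRCA1 from the 2nd to the 5th. Dividing by all exon bases of a gene, a choice made after the data were examined, placed BARD1 above FANCI in VprBP sh (143 and 123 per kilobase) and moved RAD51C from the 4th to the 8th place in Control sh.

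**Figure D3:**
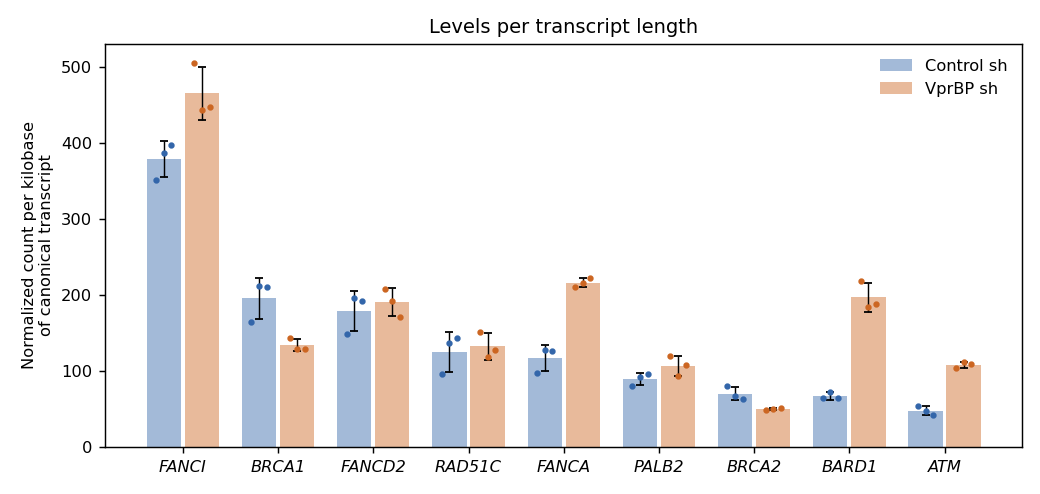
Normalized counts per kilobase of canonical transcript for the 9 genes, ordered by the Control sh mean, with bars for the mean, error bars for the SD of 3 samples and a point for each sample. BARD1 rises from 67.05 to 197 per kilobase and ATM from 47.65 to 108, while BRCA1 drops from 196 to 134 and FANCI stands highest in both groups.

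Several of these genes share a promoter region with a gene read in the opposite direction, and neighbouring transcripts can be compared in the same libraries. RefSeq promoter windows (GRCh38.p14, from 250 bases before to 50 after a start) were found for 8 of the 9 genes. Those of BRCA1 and of the 3 genes with the largest increases are printed on the gene's strand, since these 4 genes moved in opposite directions. Capitals mark the letters GCGGGAA (an E2F-like motif), TTTGAA (the cell cycle element CHR) and CCAAT (the NF-Y motif), searched on both strands, so that a match on the other strand is printed as its complement read backwards. The 7-letter and shorter motifs do not contain each other, and the start lies 50 bases from the right end of each window.
BRCA1, minus strand, chr17:43125315-43125614: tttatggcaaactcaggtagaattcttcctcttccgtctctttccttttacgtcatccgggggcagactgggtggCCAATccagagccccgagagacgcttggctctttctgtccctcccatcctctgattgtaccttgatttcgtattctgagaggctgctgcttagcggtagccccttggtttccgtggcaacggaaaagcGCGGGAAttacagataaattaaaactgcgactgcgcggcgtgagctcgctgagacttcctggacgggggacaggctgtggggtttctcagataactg
BARD1, minus strand, chr2:214809634-214809933: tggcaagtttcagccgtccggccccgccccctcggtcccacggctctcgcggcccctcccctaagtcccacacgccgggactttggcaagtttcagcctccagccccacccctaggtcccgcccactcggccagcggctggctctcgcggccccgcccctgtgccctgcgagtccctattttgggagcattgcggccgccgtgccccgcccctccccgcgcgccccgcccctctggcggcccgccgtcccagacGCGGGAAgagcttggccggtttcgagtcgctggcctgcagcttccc
ATM, plus strand, chr11:108222817-108223116: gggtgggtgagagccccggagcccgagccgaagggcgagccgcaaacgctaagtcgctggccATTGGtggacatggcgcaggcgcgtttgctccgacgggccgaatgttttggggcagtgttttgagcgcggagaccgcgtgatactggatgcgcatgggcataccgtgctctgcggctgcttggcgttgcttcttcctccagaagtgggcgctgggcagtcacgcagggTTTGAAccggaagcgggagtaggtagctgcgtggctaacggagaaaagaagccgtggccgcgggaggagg
FANCA, minus strand, chr16:89816598-89816897: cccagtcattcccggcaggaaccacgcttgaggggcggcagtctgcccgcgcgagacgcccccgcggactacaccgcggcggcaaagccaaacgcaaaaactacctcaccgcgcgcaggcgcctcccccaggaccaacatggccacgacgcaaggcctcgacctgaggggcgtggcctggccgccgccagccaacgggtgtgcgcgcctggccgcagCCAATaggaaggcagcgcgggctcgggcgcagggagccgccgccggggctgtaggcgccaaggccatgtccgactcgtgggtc
The motif GCGGGAA was in 3 of the 11 windows of these genes (BRCA1, BARD1 and FANCD2), beside 6.55% of 35116 promoter windows. The letters CG, which this motif contains, occurred 17, 32 and 29 times in those windows, beside a median of 14 over all windows. The shares given here were not matched for base content. A second E2F-like motif, GCGCGAA, was in 0 of the 11 and in 2.24% of all. TTTGAA was in 1 of the 11 (ATM) and in 15.2% of all windows, and CCAAT in 5 of the 11 (both of ATM, PALB2, FANCA and BRCA1) and in 34.6% of all. The window of BRCA1 is the one at the more downstream of its 2 listed starts, and the other held none of the motifs. ATM and RAD51C also have 2 listed starts each, and the second ATM window held 2 further CCAAT matches. BRCA1, which fell, and BARD1, which rose, both carry GCGGGAA in these windows. The window of BRCA2, which also fell and is not printed, held none of the motifs.

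ATM and NPAT, which encodes an activator of histone gene transcription, start 406 bases apart and are read in opposite directions. NPAT had 335, 313 and 335 normalized counts in Control sh, against 876, 778 and 771 in VprBP sh, a log2 fold change of 1.30 (SE 0.10, adjusted p = 2.51e-06, edgeR). Both genes of this pair thus rose by a similar amount, and the median over the 14 tested genes within 2 Mb of ATM was 1.27. DCTN5, a dynactin subunit whose start lies 156 bases from that of PALB2, rose at a log2 fold change of 0.43 (adjusted p = 0.00108, edgeR), beside 0.26 for PALB2. SNHG31, a noncoding RNA with its start 498 bases from that of BARD1, had 3 to 7 counts in Control sh, against 26 to 38 in VprBP sh, and was called as well. At BRCA1, NBR1 starts 236 bases from the outermost BRCA1 start and fell from 3154 ± 136 to 1798 ± 24 normalized counts (SD, n = 3), with a log2 difference of -0.81 (adjusted p = 6.35e-06, edgeR). NBR2, a noncoding RNA that lies inside the span given for BRCA1 over 28121 bases and starts 187 bases from the RefSeq start printed above, had 134, 137 and 118 normalized counts in Control sh, against 185, 108 and 140 in VprBP sh. NBR2 overlapped between the groups (log2 fold change 0.15, adjusted p = 0.525, edgeR) while BRCA1 fell. CIDECP1, a pseudogene that starts 25 bases from FANCD2, rose at a log2 fold change of 0.97 (adjusted p = 0.00155, edgeR), and TEX14, 518 bases from RAD51C, fell by 2.65 on the log2 scale (adjusted p = 0.00107, edgeR) from low levels. ZAR1L, opposite BRCA2, had at most 9 counts in a sample and was not tested. Over 1872 divergent pairs of tested genes, 67.4% moved in the same direction and the median absolute difference was 0.83 on the log2 scale.

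Gene overlap limits some of these values, since whether strand was used in counting is not given in the sources used here. The paper's methods describe a strand-specific KAPA kit, while the labels name a SMARTER kit. In GENCODE 44, 19.6% of the exon bases of FANCA are shared with ZNF276 on the opposite strand, and ZNF276, a zinc finger gene, rose at a log2 fold change of 1.11 (adjusted p = 6.27e-06, edgeR). If strand was not used, reads of such overlapping genes cannot be told apart. FANCI shares 2.57% of its exon bases with POLG, the mitochondrial DNA polymerase, which rose at 0.31 (adjusted p = 0.0113, edgeR). FANCA and FANCI were the genes among the 9 whose deposited values were far from whole numbers, by up to 0.469 and 0.46 of a read, and the others lay within 0.02. The share for FANCD2 was 3.25% on the opposite strand, and for the other 6 genes it was under 2% in all. The unnamed noncoding gene ENSG00000267002 overlaps BRCA1 on the same strand over 21878 bases and fell by 0.66 on the log2 scale (adjusted p = 0.0197, edgeR), and the pseudogene ENSG00000267681, which overlaps it over 300 bases, was not tested. C11orf65, which overlaps ATM over 60584 bases, had 2 to 17 counts in a sample and was not tested.

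The 9 genes were then set beside the genes around them. The median log2 fold change of tested genes within 2 Mb was 1.54 over 17 genes around BARD1, 1.27 over 14 around ATM and 1.19 over 51 around FANCA, the regions of the 3 largest increases. It was -0.61 over 112 genes around BRCA1 and -0.65 over 14 around BRCA2, the 2 genes that fell. It was 0.74 over 42 genes around FANCI, 0.37 over 39 around FANCD2, -0.11 over 30 around PALB2 and -0.54 over 50 around RAD51C. BRCA1 lay near the middle of its surroundings, with 53 tested genes at a higher fold change and 59 at a lower one, and so did BRCA2 (7 and 7), BARD1 (7 and 10) and ATM (8 and 6). FANCA lay toward the lower end of its region (38 higher and 13 lower), as did FANCD2 (28 and 11) and FANCI (27 and 15). RAD51C and PALB2 lay toward the upper end, with 10 genes higher and 40 lower around RAD51C and 9 and 21 around PALB2. Across the 9 genes, fold change and neighbourhood median had a Pearson r of 0.927 and a Spearman rho of 0.967, given as a description, since genes are not replicates and all values come from the same 6 libraries. Over 15753 tested genes with at least 10 such neighbours, r was 0.261 and rho 0.354. The median absolute gap between a gene and its neighbourhood was 0.285 for the 9 genes and 0.801 for all. The 9 genes also changed less, with a median absolute log2 fold change of 0.49, beside 0.92 for all genes tested. The comparison with all genes was thus matched neither for size of change nor for read count. Of genes within 2 Mb, 72.5% were called around FANCA, 71.4% around ATM and 70.6% around BARD1, against 46.4% of all genes tested and 16.7% around PALB2.

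**Figure D4:**
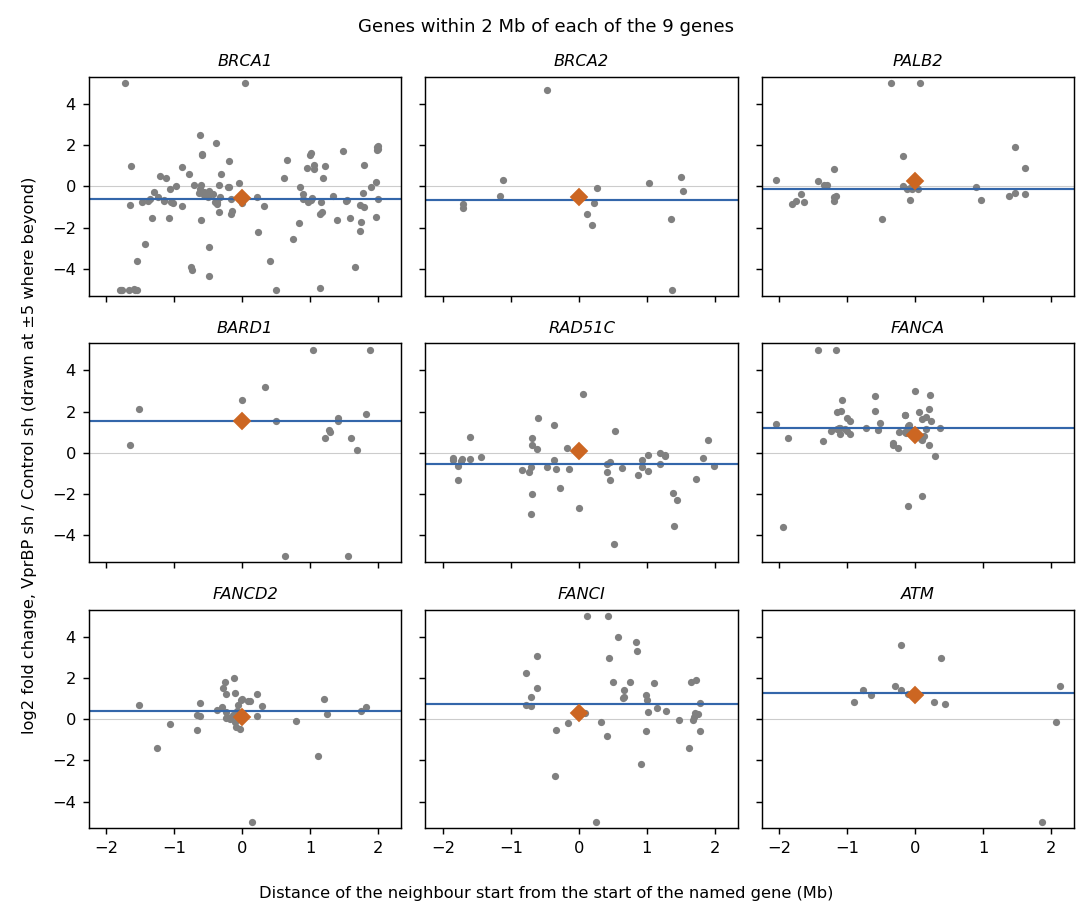
Log2 fold change of tested genes within 2 Mb of each of the 9 genes (grey points) against the distance of their start in Mb, with values beyond 5 in size drawn at the edge. The diamond is the named gene and the blue line the median of its neighbours, which runs at 1.54 near BARD1 and 1.27 near ATM and at -0.61 near BRCA1.

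The wider pathways moved in both directions. Of 44 other genes of homologous recombination, 22 rose and 15 fell, and 13 were called (7 up and 6 down), which is 29.5% of them beside 46.4% of all genes. The median log2 fold change was 0.21. The largest increases were in SWSAP1, from 36.9 ± 5.6 to 231 ± 22 normalized counts (SD, n = 3), and ZSWIM7, from 112 ± 14 to 484 ± 19, which encode the 2 partners of a recombination complex. These were increases on the log2 scale of 2.64 and 2.11 (adjusted p = 9.61e-07 and 5.34e-07, edgeR). BRCC3, a deubiquitinase in a BRCA1-containing complex, rose at 1.38, and RMI1, a partner of the BLM helicase, at 1.16. The largest decreases were in XRCC3, from 1104 ± 36 to 296 ± 26, SEM1, a small BRCA2-binding protein that is also a proteasome subunit, from 1438 ± 207 to 541 ± 43, RAD54B, a chromatin translocase, from 746 ± 26 to 282 ± 61, and SFR1, from 152 ± 19 to 59.2 ± 1.1.

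XRCC3, the partner of RAD51C in one paralog complex, fell by 1.90 on the log2 scale (adjusted p = 2.02e-07, edgeR), beside 0.07 for RAD51C. In the other paralog complex RAD51B fell by 0.86 (adjusted p = 0.00155), RAD51D rose at 0.95 (adjusted p = 0.000104) and XRCC2 had a log2 fold change of -0.17 (adjusted p = 0.378). RAD51B, RAD51D and XRCC2 were chosen after their values were seen.

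Of 22 further genes of the Fanconi pathway, 11 rose and 7 fell, with 5 called up and 3 down, or 36.4% called beside 46.4% of all genes. In the core complex with FANCA, FANCE rose from 213 ± 16 to 521 ± 38 normalized counts (SD, n = 3; log2 fold change 1.29, adjusted p = 6.91e-06, edgeR). FAAP24 and CENPS, which help anchor the core complex to DNA, rose at 1.75 and 1.19. FANCC, FANCF, FANCL and FANCM also rose, at 0.81, 0.58, 0.37 and 1.06, while FANCB and FANCG fell by 0.49 and 0.73. FAAP20 and FAAP100 did not pass the test, at -0.02 (adjusted p = 0.915, edgeR) and -0.11 (adjusted p = 0.366, edgeR). These 8 were chosen after their values were seen. Of the enzymes acting on FANCD2 and FANCI, USP1, which removes their ubiquitin, rose from 1309 ± 177 to 3441 ± 713 normalized counts (log2 fold change 1.39, adjusted p = 2.28e-05, edgeR). UBE2T, which delivers it and was also chosen after its value was seen, fell by 0.45 (adjusted p = 0.00659, edgeR). Further downstream, ERCC4, a subunit of the nuclease that cuts at crosslinks, fell from 375 ± 28 to 97.6 ± 1.8 normalized counts, a log2 fold change of -1.94 (adjusted p = 7.64e-07, edgeR). BRIP1, a BRCA1-bound helicase, fell by 1.16 and MAD2L2, a subunit of a translesion polymerase, by 1.04.

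Of 22 genes of damage signalling, 8 rose and 5 fell, and 2 were called, or 9.09% beside 46.4% of all genes. These 2 were CHEK1, a checkpoint kinase, with 675, 725 and 760 normalized counts in Control sh, against 1982, 1758 and 1696 in VprBP sh, and CLSPN, its adaptor, with 529, 630 and 692 against 1737, 1640 and 1552. They differed by 1.33 and 1.41 on the log2 scale (adjusted p = 1.29e-06 and 2.65e-06, edgeR). ATR, the kinase upstream of CHEK1 and a relative of ATM, had 1187, 1166 and 1205 normalized counts in Control sh, against 1453, 1107 and 1095 in VprBP sh. ATM rose where ATR had a log2 fold change of 0.04 (SE 0.12, adjusted p = 0.787, edgeR), although the difference between the 2 genes was not tested.

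**Figure D5:**
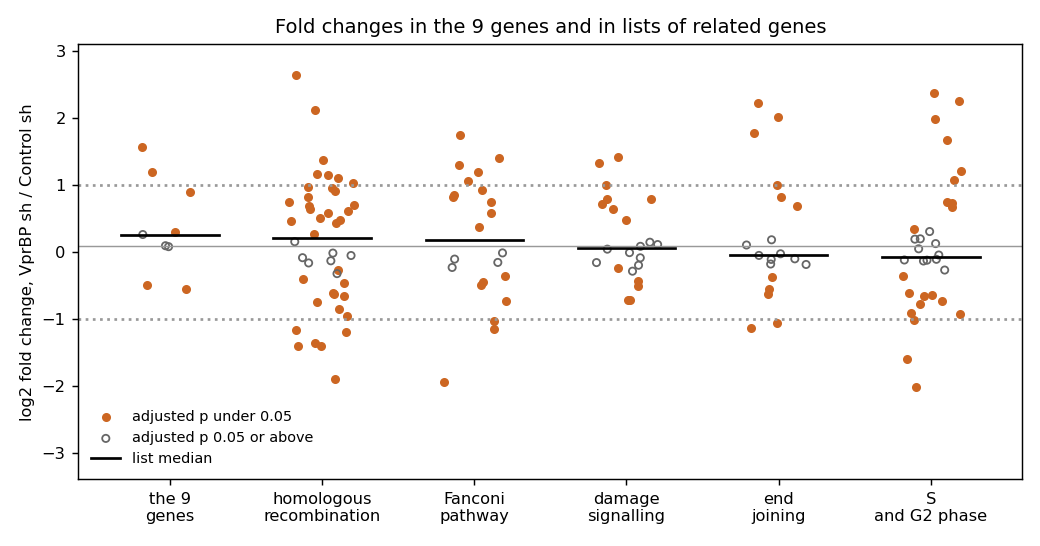
Log2 fold change of each tested gene in the 9 genes and in 5 lists of related genes, filled where the adjusted p-value was under 0.05, with a black bar at each list median, dotted lines at 2-fold and a grey line at the median of all genes tested (0.08). Every list holds genes on both sides, and the list medians run from -0.08 for S and G2 phase to 0.26 for the 9 genes.

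Because recombination genes follow the cell cycle, 32 genes of S and G2 phase were read out beside them. Of these, 10 rose and 11 fell, with 6 called up and 3 down (28.1% called, beside 46.4% of all genes), at a median log2 fold change of -0.08. PCNA, the polymerase clamp, and CDK1, the mitotic kinase, had log2 fold changes of -0.05 (adjusted p = 0.712, edgeR) and -0.12 (adjusted p = 0.319, edgeR). MKI67, a proliferation marker, fell by 0.73 (adjusted p = 0.000546, edgeR). MCM2 and MCM4, subunits of the replicative helicase, fell by 2.03 and 1.03, and E2F7, a repressing E2F, by 1.60. RRM2, which supplies deoxynucleotides, rose from 1626 ± 208 to 7704 ± 529 normalized counts (SD, n = 3; log2 fold change 2.24), and E2F2, CCNE1 and CCNE2, which drive S phase entry, rose at 2.37, 1.97 and 1.67.

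Among 16 regulators of such promoters, 7 rose and 5 fell, and 7 were called, or 43.8%, close to the 46.4% of all genes. RB1 had 2111, 2611 and 2538 normalized counts in Control sh, against 32, 16 and 18 in VprBP sh. It was thus near absent from all 3 VprBP sh samples, at 113-fold lower (log2 fold change -6.82, SE 0.21, adjusted p = 5.44e-09, edgeR). RBL1, its relative, fell from 1297 ± 91 to 479 ± 67 (SD, n = 3), and the E2F factors with which this family works, E2F4 and E2F5, fell by 1.23 and 1.07 on the log2 scale. E2F3, an activating E2F, rose at 1.27, and the NF-Y subunits NFYC and NFYB rose at 2.05 and 1.21. In the same samples in which E2F2 and E2F3 rose, BRCA1 and BRCA2 fell, at log2 fold changes of -0.55 and -0.49. BARD1, ATM, FANCA and FANCI rose in these samples, at 1.56, 1.19, 0.88 and 0.30, and PALB2, RAD51C and FANCD2 did not pass the test. Whether RB1 or the E2F factors had a part in any of these changes was not tested.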

How the data were processed

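Per the paper's methods and the labels, the authors used STAR (hg38) for the single-end reads of 6 samples and Partek Flow for gene quantification, and the table they deposited holds estimated counts, neither normalized nor pooled. Of these values 64.2% lie within 0.001 of a whole number. Samples were grouped by their titles. Estimated counts were rounded, although the design had been written for counts, and tested with edgeR 4.0.16 in R 4.3.3 (quasi-likelihood test, upper quartile factors at quantile 0.75, filterByExpr with a minimum count of 10, no replicate block, Benjamini-Hochberg adjustment over 16756 genes). The authors' own test, GSA in Partek Flow, was replaced by this test. At the same thresholds the paper reports far fewer changed genes than the 7778 called here, and the reason for this gap was not tested. Each standard error was taken from the log2 fold change and its F statistic. Normalized counts are counts over the scaled library size, where 3 counts correspond to 2.30 to 3.48, a floor for counting error only. The test was tried on simulated data. Alternatives used limma 3.58.1 (voom) and DESeq2 1.42.0. Coordinates are those of the deposited table, transcripts come from GENCODE 44 and promoters from RefSeq.

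The 9 genes and the gene lists were chosen with earlier results of these data known. Beyond the 9 genes, DCAF1, overlapping or divergent genes (starts within 1 kb), MKI67, PCNA, MCM2, CDK1 and ATR, the text names up to 4 called genes of a list in each direction whose groups did not overlap and whose higher group averaged 100 normalized counts or more, and 3 genes closest to the gene with the largest change. One further gene of this rule is not reported here.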

Additional observations from a re-analysis of the deposited data

How the results depend on the processing

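BARD1 and ATM were called in all 15 alternatives, and BRCA1, BRCA2 and FANCA kept their direction in all 15 and an adjusted p-value under 0.05 in all except the test against a 2-fold change (edgeR's glmTreat), in which 2 of the 9 genes passed. Log2 fold changes over the alternatives ran from 1.44 to 1.77 for BARD1, 1.06 to 1.40 for ATM, 0.76 to 1.09 for FANCA, -0.67 to -0.34 for BRCA1 and -0.61 to -0.28 for BRCA2. The median of all genes tested moved from 0.08 to 0.29 with library size alone, a shift that all genes share. The median of the 9 genes lay 0.173 above that of all genes, and from 0.0999 (without Control sh replicate 1) to 0.263 (without VprBP sh replicate 2) above it when 1 sample was left out, with 0.109 without VprBP sh replicate 1. FANCI lost its adjusted p-value under 0.05 with TMM, DESeq2, glmTreat and the summing of replicates 2 and 3, and PALB2 passed with library size alone (0.47, adjusted p = 0.01, edgeR). The log2 fold change of FANCD2 reversed to -0.0076 with TMM, -0.031 with DESeq2 and -0.031 without Control sh replicate 1, and that of RAD51C to -0.021, -0.044 and -0.089 in the same alternatives and to -0.03 without VprBP sh replicate 1. Without 1 sample at a time they ranged from -0.031 to 0.158 for FANCD2 and from -0.089 to 0.181 for RAD51C. The share of calls that were increases was 52.7%, and the other scalings gave 48.8% (TMM), 47.7% (DESeq2) and 60.1% (library size).

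Keeping genes with 10 or more counts in each sample left 4690 called genes in place of 7778, of 13103 tested. With glmTreat 8 genes of homologous recombination, 4 of the Fanconi pathway and 3 of end joining were called, and with library size alone 4 of damage signalling. Leaving out each sample gave 7949 to 8142 called genes, 2 called and 6 changed of the 9 genes in every case, and log2 ratio differences of 2.01 to 2.19 for BARD1 to BRCA1, 0.14 to 0.28 for FANCI to FANCD2 and 0.57 to 0.86 for PALB2 to BRCA2. With the replicate block 7686 genes were called, with 2 called and 6 changed of the 9 genes as before. The replicate numbers did not pair the samples: deviations of same-numbered samples correlated at -0.173, -0.0539 and -0.121 over 12133 genes, and 0 of the 6 samples correlated best with its own number. The neighbourhood median of PALB2 reversed to 0.058 within 5 Mb, and that of BARD1 was 2.34 within 1 Mb and 1.30 within 5 Mb, windows chosen after seeing the data. The cause of these changes was not tested. Each of the 9 genes had at least 211 counts in every sample, and whether depth limited any of their results was not tested.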

Other observations

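End joining, the route that competes with recombination for a double-strand break, also moved in both directions. Of 19 genes, 6 rose and 5 fell, with 3 called up and 2 down, or 26.3% called beside 46.4% of all genes tested, at a median log2 fold change of -0.06. LIG4, the ligase of this pathway, had 124, 135 and 124 normalized counts in Control sh, against 679, 568 and 540 in VprBP sh, a log2 fold change of 2.22 (SE 0.13, adjusted p = 3.48e-07, edgeR). NHEJ1, a ligase cofactor, rose from 112 ± 22 to 451 ± 27 normalized counts (SD, n = 3), and SHLD2, a subunit of the shieldin complex that limits end resection, from 360 ± 15 to 1233 ± 94. XRCC4, the obligate partner of LIG4, went the other way, from 269 ± 54 to 129 ± 5, a log2 fold change of -1.06 (adjusted p = 0.000318, edgeR). PRKDC, the DNA-dependent protein kinase, fell from 15534 ± 402 to 7050 ± 1209. The 2 partners LIG4 and XRCC4 thus moved in opposite directions in these libraries, as did BARD1 and BRCA1. SWSAP1 rose together with ZSWIM7, and CHEK1 with CLSPN. SWI5 and its partner SFR1 moved apart, at log2 fold changes of 1.09 and -1.36. These pairs were chosen after their values were seen, and the partners within the lists were not compared as a whole.

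Over the 6 samples, the profile of BARD1 was most like those of MORC4, CCSER2 and KIAA0895 among 13711 protein-coding genes outside the lists. The root mean square distance of log2(normalized count + 1), each gene centred on its own mean, was 0.036, 0.0445 and 0.0516. Their log2 fold changes were 1.56, 1.57 and 1.52, beside 1.56 for BARD1. These genes were picked for their likeness over the same 6 samples, so the similar fold changes follow from the choice.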
